A study of Mus musculus with 12 samples.

Results

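Chemokine ligands and their receptors were followed in RNA-seq of mouse bone marrow cells, 36 genes in all of the 24028 in the count tables: 23 ligands and 13 receptors. They were chosen by name from the family, with the values of all 12 libraries and the outcome of both comparisons already known and no threshold stated. Their differences are therefore described, and the adjusted p-values quoted below, which come from fits over all genes, are not independent support for the choice.

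All cells came from C57BL/6 mice, and each of the 4 groups held 3 libraries. The iMLL-ENL mice carried a knock-in allele, inducible by doxycycline, of MLL-ENL, a fusion oncoprotein of acute leukemia, and all of them were kept on doxycycline until they had acute leukemia. Their unsorted leukemic marrow gave the iMLL-ENL total group, and leukemic cells sorted for the surface marker B220 gave the B220 HIGH and B220 LOW groups. The wt LSK group came from wild type control mice and held lineage-depleted marrow sorted by c-Kit and Sca-1, a fraction of stem and early progenitor cells. No doxycycline is stated for it. The labels give 3 mice per genotype but not the mouse behind each library, and the p-values reflect only how far libraries differ, which may be technical. The promoter that drives the fusion is not given in the sources used here. The comparison with wt LSK sets an unsorted marrow against a sorted progenitor fraction. Library totals ran between 10921521 and 22706882 counts. The 7 stem and progenitor markers checked, which include Kit and Ly6a (Sca-1), summed to 153 to 215 CPM (counts scaled to the library total) in iMLL-ENL total and 2857 to 3475 CPM in wt LSK, and each was lower in every iMLL-ENL total library. B220 is an isoform of the protein of Ptprc, so counts per gene do not check that sort.

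Chemokines are small secreted proteins that form gradients, and cells carrying the matching receptor move along them. Their receptors are G-protein-coupled receptors of the cell surface. In the marrow the stromal ligand CXCL12 holds cells that carry CXCR4, CCR2 and its ligands draw monocytes out into the blood, and CXCR2 with its ligands does the same for neutrophils. Activated macrophages, monocytes and mast cells make many of the inflammatory ligands.

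The listed genes lie in a few clusters (GRCm38): 10 are on chromosome 11, 9 on chromosome 5, 7 on chromosome 9, 3 each on chromosomes 1 and 8, and 1 each on chromosomes 6, 13, 17 and X. The genes of the CCR2 ligands, Ccl2, Ccl7 and Ccl12, lie in the same stretch of chromosome 11, at chr11:82035577-82037452, chr11:82045712-82047525 and chr11:82101845-82103399. On chromosome 5 lie the genes of the CXCR2 ligands, Cxcl3 at chr5:90786101-90788093, Cxcl1 at chr5:90891245-90893121 and Cxcl2 at chr5:90903899-90905938. Their promoter windows are shown because Cxcl2 and Cxcl3 were among the genes called between B220 HIGH and B220 LOW in the paired fit, and Cxcl1 is their near relative. Each is the 250 bases before the annotated start, plus strand, 5′ to 3′, from RefSeq (GRCm38.p6), at chr5:90785851-90786100 for Cxcl3, chr5:90903649-90903898 for Cxcl2 and chr5:90890995-90891244 for Cxcl1. Capitals mark matches to the NF-kB consensus and to TATAAA.
Cxcl3: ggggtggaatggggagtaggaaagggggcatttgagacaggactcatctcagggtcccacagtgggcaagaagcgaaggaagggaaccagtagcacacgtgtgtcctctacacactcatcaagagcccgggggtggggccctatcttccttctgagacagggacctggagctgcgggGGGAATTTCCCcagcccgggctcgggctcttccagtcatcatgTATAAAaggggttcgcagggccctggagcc
Cxcl2: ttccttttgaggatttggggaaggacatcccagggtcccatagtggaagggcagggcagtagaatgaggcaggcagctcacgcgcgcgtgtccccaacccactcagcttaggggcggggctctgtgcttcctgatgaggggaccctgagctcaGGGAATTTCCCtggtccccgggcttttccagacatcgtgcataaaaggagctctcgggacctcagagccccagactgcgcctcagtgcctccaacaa
Cxcl1: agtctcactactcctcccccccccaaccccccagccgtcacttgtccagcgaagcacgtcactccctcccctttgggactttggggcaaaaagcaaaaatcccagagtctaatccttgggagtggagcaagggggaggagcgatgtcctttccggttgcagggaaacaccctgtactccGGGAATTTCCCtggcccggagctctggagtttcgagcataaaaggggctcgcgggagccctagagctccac

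All of them hold the run GGGAATTTCCC, which ends 63 bases before the start in Cxcl3, 87 bases before it in Cxcl2 and 61 bases before it in Cxcl1. The run matches the NF-kB consensus on both strands, and the matches overlap. The TATAAA match of Cxcl3 begins 30 bases before its start. A window was at hand for 27 of the 36 genes and for none of Ccl2, Ccl4, Ccl5, Ccl7, Ccl24, Cxcl5, Cxcl16, Ccr7 and Cxcr5. The NF-kB consensus, searched on both strands, was found in 8 of the 27, namely Ccl9, Cxcl1, Cxcl2, Cxcl3, Cxcl10, Ccr3, Ccr6 and Ccrl2, and in 3.9% of all 32851 promoter windows of the same length. TATAAA, searched on the gene's strand, was in 8 of the 27 and in 7.59% of all windows. TTGCNNAA, a C/EBP motif, was in 2 (Pf4 and Ackr3) against 9.56% of all windows. GAGGAAGT, a PU.1 motif, was in 2 (Pf4 and Cxcr3) against 2.44%. The interferon-stimulated response element (ISRE) was in 2 (Cxcl10 and Cxcl14) against 2.98%, with both strands searched for these 3 motifs. Listed genes were counted if any of their windows matched, and some had several windows, while the percentages count single windows. A match is a description of the letters, not of a bound site.

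The ligands made up the largest pool of chemokine RNA in B220 HIGH cells. Summed over the 23 ligands, the level was 1786, 3596 and 9195 CPM in B220 HIGH libraries 1, 2 and 3, against 570.01, 985 and 1091 CPM in B220 LOW. It was 714, 1127 and 989 CPM in iMLL-ENL total, against 407, 545 and 258 CPM in wt LSK. The groups of each comparison did not overlap. Summed over the 13 receptors, the level was 708, 1021 and 1519.7 CPM in iMLL-ENL total, against 165, 281 and 152 CPM in wt LSK, again without overlap. B220 HIGH had 336, 501 and 609.6 CPM of receptors, against 282, 246 and 329 CPM in B220 LOW. The tables of the first and the second pair of groups were deposited apart, so levels set across them were not tested.

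**Figure D1:**
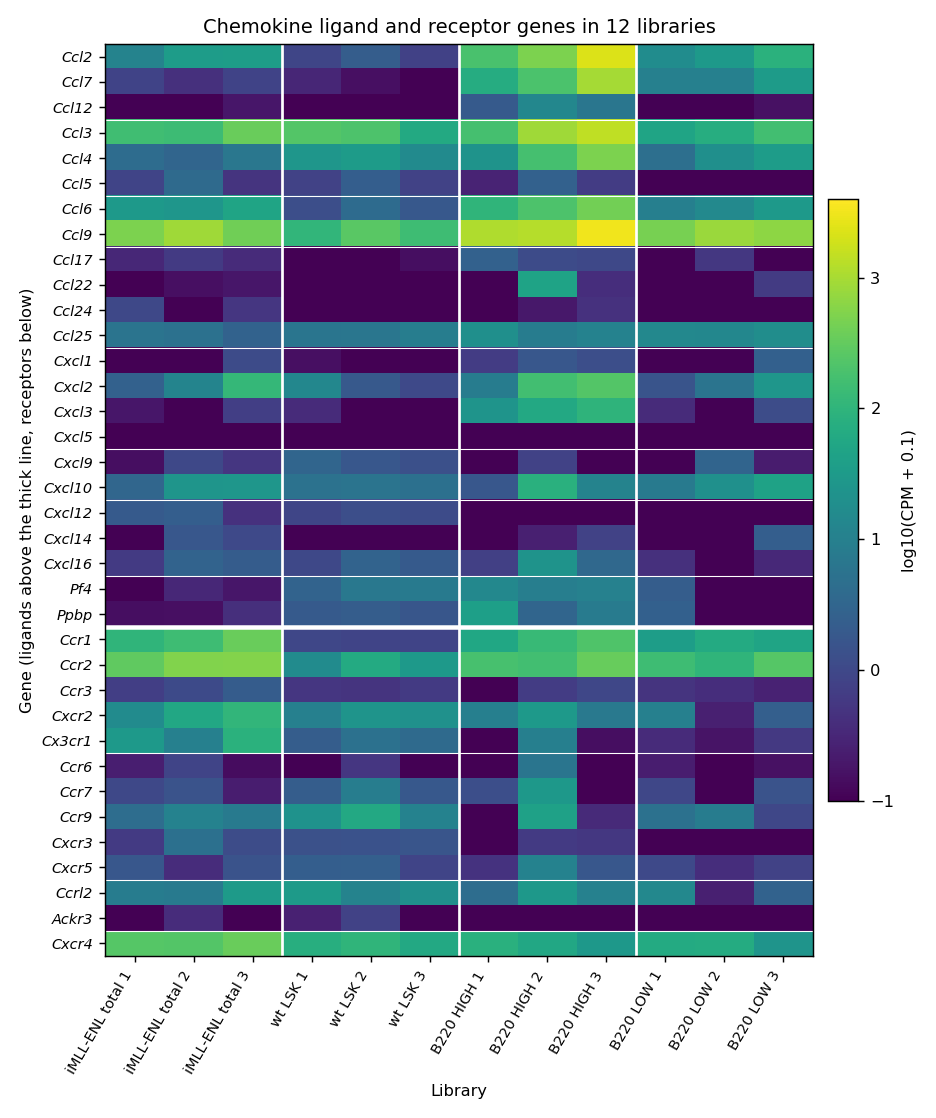
Level of each of the 36 genes (log10 of CPM plus 0.1, color) in each of the 12 libraries, ligands above the thick line and receptors below it. Ccl3, Ccl9, Ccr2 and Cxcr4 had at least 16.7 CPM in all 12 libraries, Ccl7 and Cxcl3 lie higher in B220 HIGH than in B220 LOW, and Cxcl5 was at 0 in all 12 libraries.

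Per kilobase of gene width, Ccl3 and Ccl9 headed the ligands in iMLL-ENL total, with means of 274 and 195 CPM per kb, and in wt LSK, with 214 and 58.0 CPM per kb. In B220 HIGH the order by the same measure was Ccl2 at 1236, Ccl3 at 1038, Ccl9 at 619 and Ccl7 at 504 CPM per kb. In B220 LOW it was Ccl9 at 210.03, Ccl3 at 120.2 and Ccl2 at 55.3 CPM per kb. The B220 HIGH order is not firm, since the levels of Ccl2, Ccl3 and Ccl7 differed several-fold between its 3 libraries. Among receptors, Cxcr4 led in iMLL-ENL total with 154 CPM per kb and in wt LSK with 43.8, while Ccr2 led in B220 HIGH with 52.3 and in B220 LOW with 38.2 CPM per kb. Counts were present in all 12 libraries for 14 of the 36 genes.

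The first comparison set the leukemic marrow of iMLL-ENL mice against normal LSK cells. Of the 36 genes, 25 had enough counts to be tested (14 ligands and 11 receptors) and 11 were called at an adjusted p under 0.05. Ccl2, Ccl6, Ccl9, Ccr1, Ccr2, Cxcr4 and Cx3cr1 rose, and Ccl4, Pf4, Ppbp and Ccr9 fell. Over all 13811 genes tested, 30.6% were called, 15.5% higher and 15.1% lower. Without wt LSK library 1 or 3, 2658 or 2636 genes were called in place of 4221. By CPM alone, 8 of the 25 had iMLL-ENL total libraries all above the wt LSK libraries, against 19.0% of all genes tested, and 7 lay all below, against 29.5%. The median log2 fold change was 0.74 over the 25 chemokine genes (0.56 over ligands, 1.63 over receptors) and 0.05 over all genes. In these bulk samples, fewer cells of a type and less RNA per cell cannot be told apart.

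Among the ligands that rose, Ccl2, the main attractant of monocytes through CCR2, had 11.2, 34.5 and 36.2 CPM in iMLL-ENL total, against 0.806, 2.19 and 0.663 CPM in wt LSK. Its log2 fold change was 4.66 (SE 0.65), with an adjusted p of 0.00121 in edgeR's quasi-likelihood test with Benjamini-Hochberg adjustment, as for all adjusted p-values unless another tool is named. Ccl6, a ligand of CCR1 made by myeloid cells of the mouse, had 29.1, 26.3 and 48.2 CPM in iMLL-ENL total, against 1.18, 3.95 and 1.73 CPM in wt LSK. Every leukemic library thus exceeded every LSK library for both genes. Ccl6 had a log2 fold change of 4.10 (SE 0.51, adjusted p = 0.00067). Ccl9, the neighbouring gene and also a CCR1 ligand, had 499, 866 and 393 CPM in iMLL-ENL total, against 106, 268 and 150.1 CPM in wt LSK. Its groups did not overlap, and its log2 fold change was 1.92 (SE 0.38, adjusted p = 0.00643).

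Ccl3 and Ccl4, adjacent genes of inflammatory ligands, behaved unequally. Ccl4 had 4.17, 3.11 and 6.65 CPM in iMLL-ENL total, against 26.2, 33.5 and 15.7 CPM in wt LSK, with no overlap. The log2 fold change of Ccl4 was -2.27 (SE 0.43, adjusted p = 0.00474). Ccl3 had 154, 142 and 353 CPM in iMLL-ENL total, against 237, 207 and 61.9 CPM in wt LSK. The groups overlapped for Ccl3 and the adjusted p was 0.507. The annotated spans of these genes overlap each other, at chr11:83647843-83649378 for Ccl3 and chr11:83648624-83664683 for Ccl4, and the library kit did not keep strand, so reads in the shared stretch cannot be assigned with certainty.

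The platelet chemokines had almost no RNA in the leukemic marrow. Pf4 (platelet factor 4) had 0, 0.222 and 0.0881 CPM in iMLL-ENL total, against 2.85, 6.97 and 7.39 CPM in wt LSK. Ppbp, which encodes the other main chemokine of platelet granules, had 0.0463, 0.0556 and 0.308 CPM in iMLL-ENL total, against 1.88, 2.19 and 1.58 CPM in wt LSK. Both fell, with log2 fold changes of -5.60 for Pf4 (SE 0.95, adjusted p = 0.00301) and -3.52 for Ppbp (SE 0.87, adjusted p = 0.0163). Without wt LSK library 1, 2 or 3, the adjusted p of Ppbp was 0.0638, 0.0555 or 0.0586. The 9 megakaryocyte and platelet markers summed to 21.7 to 39.3 CPM in iMLL-ENL total and 102 to 147 CPM in wt LSK. Gp6 was at 0 in wt LSK. Of the 9 markers, 7 were lower in all iMLL-ENL total libraries, against 29.5% of all genes tested, and none higher in all. Their part in the fall of Pf4 and Ppbp was not tested.

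The other 8 ligands tested were not called. Cxcl2, a neutrophil attractant through CXCR2, had 2.59, 11.9 and 115 CPM in iMLL-ENL total, against 13.3, 1.81 and 0.918 CPM in wt LSK, where 1 library of each group stood far above its others (adjusted p = 0.184). Cxcl10, an interferon-induced ligand of CXCR3, had 3.15, 25.0 and 26.2 CPM in iMLL-ENL total, against 5.21, 5.82 and 4.84 CPM in wt LSK (adjusted p = 0.0623). Cxcl9, another ligand of CXCR3, had 0.0463, 0.889 and 0.44 CPM in iMLL-ENL total, against 3.12, 1.65 and 1.22 CPM in wt LSK. Cxcl9 levels did not overlap, but the adjusted p was 0.149. Ccl25, the ligand of CCR9, averaged 4.49 ± 1.61 CPM in iMLL-ENL total and 6.999 ± 1.46 CPM in wt LSK (SD, n = 3 each), also without overlap, with an adjusted p of 0.421. Cxcl12, the ligand of CXCR4, averaged 1.51 ± 1.01 CPM in iMLL-ENL total and 0.993 ± 0.175 CPM in wt LSK (SD, n = 3 each). Ccl5 (attracts T cells) and Cxcl16, the ligand of CXCR6 that is made as a membrane protein, averaged between 1.24 and 1.88 CPM in both groups.

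The receptor with the widest difference was Ccr1, which binds CCL3, CCL6 and CCL9 in the mouse. Ccr1, at chr9:123962126-123968692, had 102, 150.1 and 361 CPM in iMLL-ENL total, against 0.859, 0.768 and 0.765 CPM in wt LSK. Its log2 fold change was 8.16 (SE 0.62, adjusted p = 8.0e-05). Ccr2, the monocyte receptor for CCL2, had 299, 539 and 569 CPM in iMLL-ENL total, against 16.7, 64.2 and 30.9 CPM in wt LSK. Neither receptor's groups overlapped, and Ccr2 had a log2 fold change of 3.84 (SE 0.50, adjusted p = 0.00103). Cx3cr1, the fractalkine receptor of monocytes, had 29.6, 10.1 and 85.2 CPM in iMLL-ENL total, against 2.15, 5.05 and 3.77 CPM in wt LSK (log2 fold change 3.70, SE 0.77, adjusted p = 0.00824). Cxcr4, the receptor that retains cells in the marrow, had 245, 238 and 355 CPM in iMLL-ENL total, against 76.2, 102 and 60.7 CPM in wt LSK. Cxcr4 was thus already high in LSK cells, and its log2 fold change of 1.98 (SE 0.26, adjusted p = 0.000928) had the smallest SE of the called chemokine genes.

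Ccr9, a receptor of gut-homing and early lymphoid cells, was the receptor that fell. It had 4.36, 10.7 and 7.49 CPM in iMLL-ENL total, against 21.8, 60.7 and 10.9 CPM in wt LSK, a log2 fold change of -1.87 (SE 0.61). Its adjusted p of 0.0495 was the nearest below the threshold of 0.05, and it was between 0.078 and 0.195 in the 5 fits with a library left out that lost the call. The nearest above was that of Cxcr2, the neutrophil receptor, at 0.0515, with 16.4, 57.0 and 106 CPM in iMLL-ENL total, against 9.94, 23.5 and 20.8 CPM in wt LSK. Cxcr2 groups overlapped. The 8 B lineage markers summed to 19.4 to 36.2 CPM in iMLL-ENL total and 42.7 to 206 CPM in wt LSK, with 4 of 8 lower in all iMLL-ENL total libraries. The 9 T and NK markers summed to 10.7 to 41.7 CPM in iMLL-ENL total and 87.2 to 212 CPM in wt LSK, with 3 of 9 lower in all. Of all genes tested, 29.5% were lower in all iMLL-ENL total libraries, so these counts do not set the lists apart. None of these 17 lymphoid markers was higher in all or at 0 in either group, and their part in the fall of Ccr9 was not tested. The other receptors tested were not called. Ccr3 (eosinophil receptor) averaged 1.22 ± 0.759 CPM in iMLL-ENL total and 0.441 ± 0.0638 CPM in wt LSK (SD, n = 3 each), without overlap and with an adjusted p of 0.13. Ccr7, which guides dendritic cells and lymphocytes to lymph nodes, averaged 0.8 ± 0.632 CPM in iMLL-ENL total and 4.29 ± 3.99 CPM in wt LSK (SD, n = 3 each), without overlap and with an adjusted p of 0.102. Cxcr3 and Cxcr5 (T and B cell receptors) averaged between 1.12 and 2.17 CPM. Ccrl2, an atypical receptor that binds chemerin, averaged 16.1 ± 13.8 CPM in iMLL-ENL total and 20.8 ± 10.2 CPM in wt LSK (SD, n = 3 each).

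**Figure D2:**
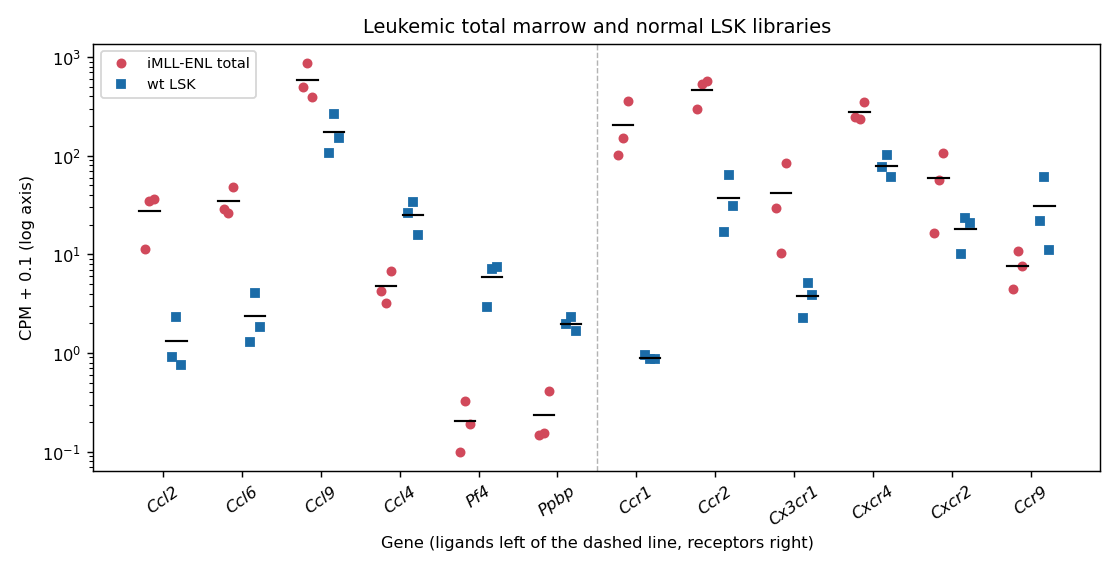
Level (CPM plus 0.1, log axis) of 12 chemokine genes in the 3 iMLL-ENL total libraries (circles) and the 3 wt LSK libraries (squares), with bars at the mean. Ccr1 lies between 102 and 361 CPM in iMLL-ENL total and under 1 CPM in wt LSK, and Pf4, Ppbp and Ccl4 lie lower in iMLL-ENL total.

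Markers of mature myeloid cells moved with these receptors and ligands. The 8 monocyte and macrophage markers, among them Csf1r and Adgre1, summed to 1298 to 2727 CPM in iMLL-ENL total and 81.4 to 217 CPM in wt LSK. Of them, 6 were higher in all iMLL-ENL total libraries and none was lower in all. The 9 neutrophil markers summed to 1328 to 12633 CPM in iMLL-ENL total and 8.26 to 144 CPM in wt LSK, with 8 higher in all iMLL-ENL total libraries. Of all genes tested, 19.0% were higher in all iMLL-ENL total libraries. None of these 17 markers was at 0 in either group. The part of these cell types in the rise of Ccr1, Ccr2, Cx3cr1, Ccl2, Ccl6 and Ccl9 was not tested.

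For 11 genes the counts were too few for the test in this comparison: Ccl7, Ccl12, Ccl17, Ccl22, Ccl24, Cxcl1, Cxcl3, Cxcl5, Cxcl14, Ccr6 and Ackr3. Ccl7, a monocyte attractant, had 39 counts in iMLL-ENL total and 5 in wt LSK. Ccl24 (eotaxin-2) had 29 counts in iMLL-ENL total (19, 0 and 10 in libraries 1, 2 and 3) and 0 in wt LSK. That is at least 8.76-fold higher, taking 3 counts over the wt LSK libraries as the floor. Cxcl14 had 51 counts in iMLL-ENL total (0, 30 and 21 in libraries 1, 2 and 3) and 0 in wt LSK, at least 15.4-fold higher. Counting error alone is covered by such bounds and by the 95% intervals here. Ccl17, a ligand of CCR4, had 20 counts in iMLL-ENL total and 1 in wt LSK, a ratio of 18.1 (interval 2.90 to 751). For Cxcl1 the counts were 23 in iMLL-ENL total, all from library 3, and 1 in wt LSK, a ratio of 20.8 (interval 3.38 to 859). Cxcl3 (16 counts in iMLL-ENL total and 5 in wt LSK), Ccr6 (18 in iMLL-ENL total and 8 in wt LSK) and the CXCL12 scavenger Ackr3 (5 in iMLL-ENL total and 16 in wt LSK) were near the limit of detection. Ccl12 and Ccl22 had at most 3 counts in either group, and Cxcl5 had 0.

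The second comparison set leukemic cells with high B220 against those with low B220. Without pairing, 0 of 12564 genes (0%) were called by edgeR's quasi-likelihood test, so 0 of the 24 chemokine genes tested (16 ligands and 8 receptors) were called. DESeq2 without pairing called 232 genes, 8 of them chemokine genes. Libraries with the same number deviated together, as set out with the processing, and were therefore also fitted as pairs. With the number as a replicate block, 79 genes (0.629%) were called, 73 of them higher (0.581%). The called chemokine genes were 7 ligands, Ccl2, Ccl3, Ccl4, Ccl6, Ccl7, Cxcl2 and Cxcl3, all higher in B220 HIGH, and no receptor was called. Those calls depend on which pairs enter: 8 chemokine genes were called without pair 1, 8 without pair 2, and 2 (Ccl2 and Ccl6) without pair 3. Without B220 HIGH library 1, the fit without pairing called 96 genes, 5 of them chemokine genes.

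By level alone, 11 of the 24 had B220 HIGH libraries all above the B220 LOW libraries, against 6.2% of all genes tested, and 0 of the 24 lay all below, against 7.22%. All 11 were ligands: Ccl2, Ccl3, Ccl6, Ccl7, Ccl9, Ccl12, Ccl17, Cxcl3, Cxcl16, Pf4 and Ppbp. Within pairs of the same number, 15 of the 24 (13 ligands and 2 receptors, Ccr1 and Ccr2) were higher in B220 HIGH in all 3, against 16.1% of all genes. The median log2 fold change over the 24 was 3.23 (3.002 in the paired fit), beside -0.03 over all genes tested (-0.02 in the paired fit). It was 3.74 over the ligands and 1.60 over the receptors. Genes with too few counts are outside these counts and medians, and a gene could enter the test through B220 HIGH alone.

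The CCR2 ligands were higher in every B220 HIGH library than in any B220 LOW library. Ccl2 had 188, 495 and 2306.5 CPM in B220 HIGH libraries 1, 2 and 3, against 17.025, 29.4 and 87.3 CPM in B220 LOW. Within pairs it was 11.1-, 16.9- and 26.4-fold higher in B220 HIGH. Ccl2 rose in the paired fit, with a log2 fold change of 4.14 (SE 0.26, adjusted p = 0.000392, against 0.412 without pairing). Ccl7, which also binds CCR1 and CCR3, had 71.0, 201 and 937 CPM in B220 HIGH, against 9.89, 10.2 and 33.3 CPM in B220 LOW. Neither gene's groups overlapped, and pair 3 was the highest in both fractions for both genes. The log2 fold change of Ccl7 in the paired fit was 4.06 (SE 0.41, adjusted p = 0.0136, against 0.377 without pairing). Ccl12, a CCR2 ligand of the mouse from the same stretch of chromosome 11, had 1.92, 13.2 and 6.27 CPM in B220 HIGH, against 0, 0 and 0.0601 CPM in B220 LOW. That is 410 counts in B220 HIGH and 1 count in B220 LOW, a ratio of 366 (interval 65.4 to 14498). Its adjusted p in the paired fit was 0.0652, the nearest above the threshold, and it was called in 2 of the 15 alternative fits.

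The neighbouring ligand genes Ccl3 and Ccl4 followed. Ccl3 had 172, 866 and 1422 CPM in B220 HIGH, against 48.8, 74.5 and 161 CPM in B220 LOW, which do not overlap. In the paired fit its log2 fold change was 2.89 (SE 0.35, adjusted p = 0.0281, the nearest below the threshold). Ccl4 had 23.1, 172 and 494 CPM in B220 HIGH, against 4.65, 19.3 and 34.2 CPM in B220 LOW. The groups of Ccl4 overlapped through B220 HIGH library 1, yet each pair had more in B220 HIGH, by 4.96-, 8.93- and 14.4-fold. Its paired log2 fold change was 3.19 (SE 0.31, adjusted p = 0.00362). The adjusted p without pairing was 0.412 for Ccl3 and 0.600 for Ccl4. Ccl5 was listed at 0 in all B220 LOW libraries and had 65 counts in B220 HIGH, at least 19.4-fold higher, with 0.183, 2.59 and 0.556 CPM, and was too low to be tested.

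Ccl6 was the most even of the called ligands across pairs. It had 104, 206 and 419 CPM in B220 HIGH, against 9.43, 14.8 and 29.8 CPM in B220 LOW, and the pairs differed by 11.1-, 13.9- and 14.1-fold. Its paired log2 fold change was 3.74 (SE 0.21, adjusted p = 0.000392, against 0.181 without pairing). Ccl9, next to Ccl6 on chromosome 11, had 1115, 1240.3 and 3231 CPM in B220 HIGH, against 452, 794 and 649 CPM in B220 LOW. The groups of Ccl9 did not overlap but the pairs differed by only 2.47-, 1.56- and 4.98-fold, and the paired adjusted p was 0.174. Ccl9 was called in 3 of the 15 alternative fits.

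Of the CXCR2 ligands whose promoters are printed above, Cxcl3 and Cxcl2 were higher in B220 HIGH in every pair. Cxcl3 had 24.2, 60.6 and 96.4 CPM in B220 HIGH, against 0.262, 0 and 1.08 CPM in B220 LOW. Pairs 1 and 3 differed by 92.3- and 89.1-fold, and in pair 2 the B220 LOW library was at 0. Cxcl3 rose in the paired fit with a log2 fold change of 7.29 (SE 0.77, adjusted p = 0.00493), and its adjusted p of 0.132 without pairing was the lowest of the 24 genes. Cxcl2 had 8.61, 161 and 233 CPM in B220 HIGH, against 1.44, 5.73 and 25.7 CPM in B220 LOW. The Cxcl2 groups overlapped, while the pairs differed by 5.97-, 28.1- and 9.06-fold in the same direction. The paired log2 fold change of Cxcl2 was 3.63 (SE 0.44, adjusted p = 0.0107, against 0.688 without pairing). Cxcl1 was low throughout, with 0.549, 1.69 and 1.16 CPM in B220 HIGH, against 0, 0 and 2.47 CPM in B220 LOW, where 1 library held all 41 counts. Cxcl5 had 0 counts in both.

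**Figure D3:**
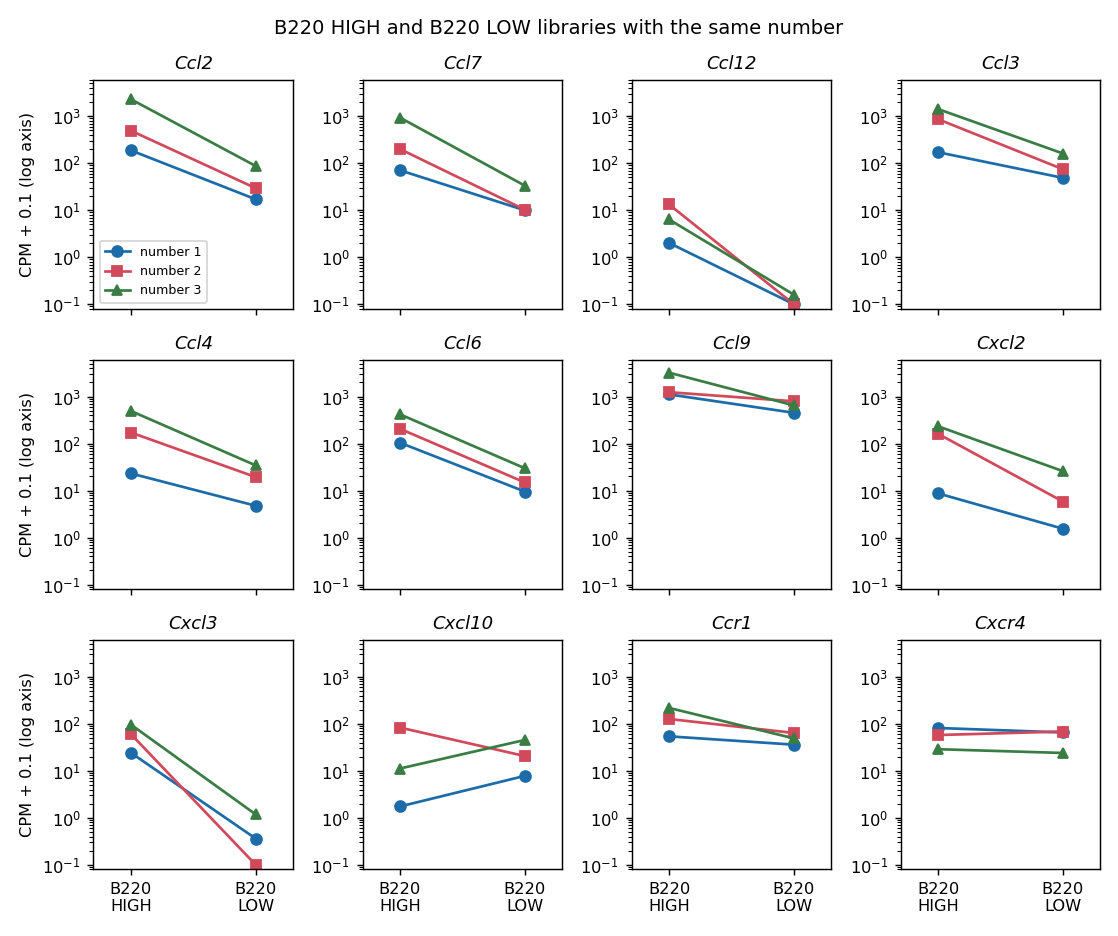
Level (CPM plus 0.1, log axis) of 12 chemokine genes in B220 HIGH (left) and B220 LOW (right) libraries, with lines joining libraries of the same number. Lines for Ccl2, Ccl7, Ccl6, Cxcl2 and Cxcl3 all slope down toward B220 LOW, those of Cxcl10 cross, and those of Cxcr4 are nearly level.

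The platelet chemokines, almost without RNA in iMLL-ENL total, were present in B220 HIGH cells. Pf4 had 13.9, 9.32 and 10.4 CPM in B220 HIGH, against 2.16, 0 and 0 CPM in B220 LOW. Ppbp had 38.9, 3.09 and 8.19 CPM in B220 HIGH, against 2.49, 0 and 0 CPM in B220 LOW. The groups did not overlap for either gene, and neither was called without pairing or with it (paired adjusted p = 0.186 for Pf4 and 0.0852 for Ppbp). Each was called in 2 of the 15 alternative fits. The 9 megakaryocyte and platelet markers summed to 23.2 to 56.6 CPM in B220 HIGH and 2.10 to 15.2 CPM in B220 LOW, with 2 of the 9 higher in all B220 HIGH libraries and 1 lower in all. Of all genes tested, 6.2% were higher in all B220 HIGH libraries and 7.22% lower in all. Gp6 was at 0 in B220 HIGH and Tubb1 at 0 in B220 LOW. The part of these cells in the levels of Pf4 and Ppbp was not tested.

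The remaining ligands were not called in either fit or were not tested. Cxcl10 was lower in B220 HIGH in pairs 1 and 3 and higher in pair 2, with 1.65, 83.4 and 11.1 CPM in B220 HIGH, against 7.73, 20.5 and 45.3 CPM in B220 LOW. Its log2 fold change was 0.42 without pairing and -0.81 with it, and neither passed (adjusted p = 0.979 and 0.798). Ccl25 averaged 12.99 ± 5.62 CPM in B220 HIGH and 14.9 ± 2.38 CPM in B220 LOW (SD, n = 3 each). Cxcl16 had 0.641, 22.9 and 3.54 CPM in B220 HIGH, against 0.327, 0 and 0.241 CPM in B220 LOW, without overlap (paired adjusted p = 0.383). It was called in 2 of the 12 alternative fits that tested it. Ccl17 had 2.56, 1.05 and 0.91 CPM in B220 HIGH, against 0, 0.446 and 0 CPM in B220 LOW, also without overlap (paired adjusted p = 0.45). Ccl22, which shares the receptor CCR4 with CCL17, had 46.1 CPM in B220 HIGH library 2 and at most 0.541 CPM in the other 5 sorted libraries. Cxcl12 was at 0 counts in all 6 sorted libraries, which allows a mean of up to 0.0591 CPM in B220 HIGH and 0.0662 CPM in B220 LOW. Cxcl9, Cxcl14 and Ccl24 stayed at or below 2.90 CPM in every sorted library.

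No receptor passed in either fit, though Ccr1 was called in 1 of the 15 alternative fits. Ccr1 had 54.2, 127 and 218 CPM in B220 HIGH, against 36.01, 63.9 and 49.1 CPM in B220 LOW, higher by 1.51-, 1.99- and 4.45-fold within pairs (paired adjusted p = 0.157). Ccr2 had 184, 159.9 and 341 CPM in B220 HIGH, against 148, 104 and 248 CPM in B220 LOW, higher by 1.24-, 1.54- and 1.38-fold within pairs (paired adjusted p = 0.279). Cxcr4 had 81.7, 57.8 and 28.8 CPM in B220 HIGH, against 65.5, 68.7 and 23.9 CPM in B220 LOW. Its levels differed more between pairs than between the fractions, and the paired log2 fold change was 0.16 (SE 0.28, adjusted p = 0.867).

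Several receptors and the ligand Ccl22 were high in B220 HIGH library 2 alone. Ccr7 had 27.7 CPM, Cxcr5 (follicular homing of B cells) 11.0 CPM, Ccr6 (a receptor of dendritic cells and lymphocytes) 5.93 CPM and Ccr9 42.7 CPM there. In the other 5 sorted libraries these genes reached at most 1.38 CPM for Ccr7, 1.67 for Cxcr5, 0.131 for Ccr6 and 8.48 for Ccr9. Cx3cr1 had 9.72 CPM in the same library and at most 0.481 CPM in the other 5. Several marker lists also summed highest of the sorted libraries there. Of these, 4 are given here and others, such as the neutrophil list, below. The plasmacytoid list was higher there by little. The 6 conventional dendritic cell markers summed to 912 CPM in B220 HIGH library 2, 79.0 and 79.2 CPM in the other B220 HIGH libraries and 26.8 to 51.6 CPM in B220 LOW, with 2 of 6 higher in all B220 HIGH libraries. Of the 912 CPM, 783 came from the class II gene H2-Ab1, while Clec9a, a marker of one dendritic cell subset, was at 0 and Cd209a at 0.797 CPM there. The 8 B lineage markers summed to 82.4 CPM in B220 HIGH library 2, 8.79 and 13.9 CPM in the other B220 HIGH libraries and 7.203 to 14.9 CPM in B220 LOW, with 1 of 8 higher in all B220 HIGH libraries and Pax5 and Igll1 at 0 in B220 LOW. The 9 T and NK markers summed to 48.6 CPM in B220 HIGH library 2, 3.48 and 1.97 CPM in the other B220 HIGH libraries and 0.902 to 11.7 CPM in B220 LOW, with 1 of 9 higher in all B220 HIGH libraries and Cd8a at 0 in B220 LOW. The 5 plasmacytoid dendritic cell markers summed to 365 CPM in B220 HIGH library 2, 176 and 334 CPM in the other B220 HIGH libraries and 119 to 277 CPM in B220 LOW, with 1 of 5 higher in all B220 HIGH libraries and Klk1 at 0 in B220 LOW. That marker was Siglech, with 0.458, 66.7 and 2.02 CPM in B220 HIGH, against 0, 0 and 0.0601 CPM in B220 LOW. Of all genes tested, 6.2% were higher in all B220 HIGH libraries and 7.22% lower in all. No marker of these 4 lists was lower in all B220 HIGH libraries. Their part in these receptor levels was not tested. Cxcr2 and Ccrl2 overlapped between the fractions, with B220 LOW library 2 at 0.149 CPM for both. Ccr3, Cxcr3 and Ackr3 were at most 0.86 CPM in every sorted library, and Ackr3 and, in B220 LOW, Cxcr3 were at 0.

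Markers of other cell types are given beside the ligands, since some differed between B220 HIGH and B220 LOW. The 7 mast cell, basophil and eosinophil markers summed to 1011, 71.4 and 996 CPM in B220 HIGH, against 20.0, 26.7 and 58.3 CPM in B220 LOW, with 3 of 7 higher in all B220 HIGH libraries and none lower in all. Cpa3, a mast cell protease, accounted for most of that sum, with 819, 52.5 and 876 CPM in B220 HIGH, against 2.88, 0 and 11.4 CPM in B220 LOW. Fcer1a, the defining subunit of the high-affinity IgE receptor, was at 0 in both groups, and Prss34 was at 0 in B220 LOW. The 8 monocyte and macrophage markers summed to 389.9, 1121.5 and 1007 CPM in B220 HIGH, against 376, 474 and 366 CPM in B220 LOW, with 2 of 8 higher in all B220 HIGH libraries, none lower in all and none at 0. Adgre1 (F4/80) was one of them, with 219.6, 180.2 and 188 CPM in B220 HIGH, against 78.0, 21.9 and 17.6 CPM in B220 LOW. The other, Cd68, had 68.2, 235 and 299 CPM in B220 HIGH, against 48.8, 58.8 and 67.4 CPM in B220 LOW. Within pairs, 4 of the 8 were higher in B220 HIGH in every pair. Ly6c2 was lower in every pair, with 32.2, 212 and 55.1 CPM in B220 HIGH, against 106, 291 and 115 CPM in B220 LOW. The 9 neutrophil markers summed to 191, 16529 and 5056 CPM in B220 HIGH, against 824, 2011 and 3717.5 CPM in B220 LOW, with 1 of 9 higher in all B220 HIGH libraries and none at 0. The 7 stem and progenitor markers summed to 199 to 365 CPM in B220 HIGH and 93.6 to 104 CPM in B220 LOW, with 3 of 7 higher in all B220 HIGH libraries, none lower in all and none at 0. Ly6a had 285 CPM in B220 HIGH library 2 and Cd34 had 289 CPM in library 3. Of the 7, 4 were higher in every pair and Kit was lower in every pair. Kit had 41.8, 40.3 and 7.28 CPM in B220 HIGH, against 53.3, 61.8 and 9.56 CPM in B220 LOW. Over all genes tested, 6.2% were higher in all B220 HIGH libraries and 7.22% lower in all. The part of these cell types in the ligand levels was not tested.

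**Figure D4:**
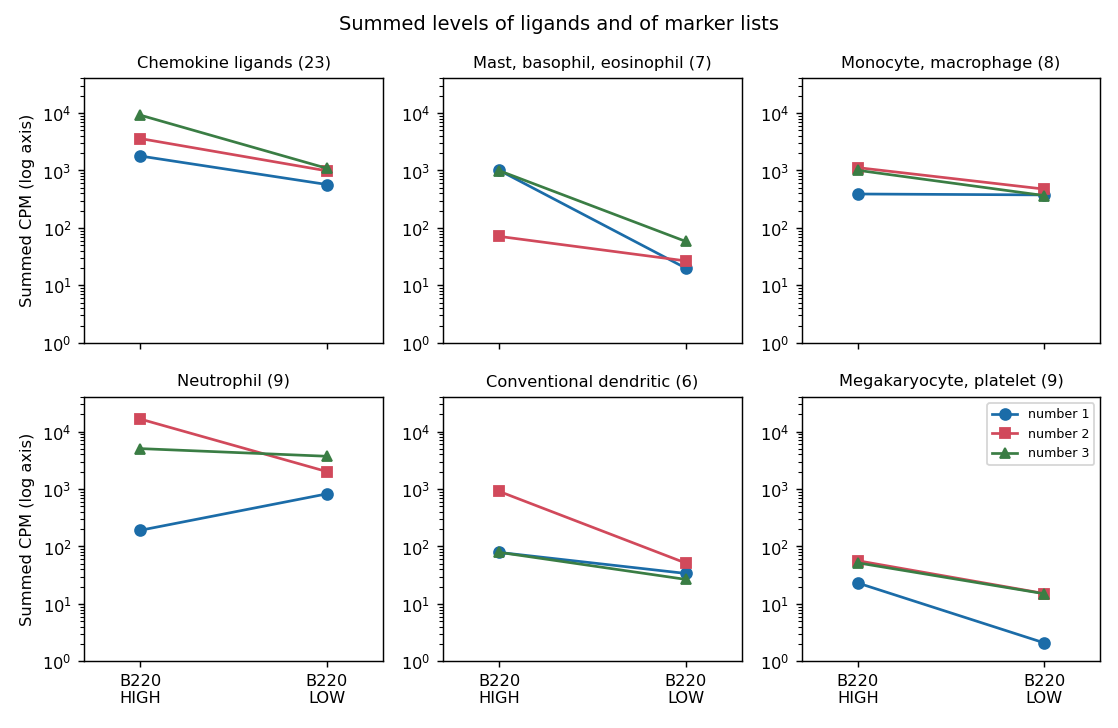
Summed level (CPM, log axis) of the 23 chemokine ligands and of 5 marker lists in B220 HIGH (left) and B220 LOW (right) libraries, with lines joining libraries of the same number and the number of genes in brackets. The ligand sum lies between 1786 and 9195 CPM in B220 HIGH and between 570.01 and 1091 CPM in B220 LOW, and the mast, basophil and eosinophil sum is widest apart in pairs 1 and 3.

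Set side by side across the separately deposited tables, without a test, some genes in both sorted fractions lay outside the range of unsorted leukemic marrow. Ccl7 lay between 71.0 and 937 CPM in B220 HIGH and between 9.89 and 33.3 CPM in B220 LOW, beside 0.333 to 0.749 CPM in iMLL-ENL total. Cxcr4 went the other way, with 28.8 to 81.7 CPM in B220 HIGH and 23.9 to 68.7 CPM in B220 LOW, beside 238 to 355 CPM in iMLL-ENL total. Cx3cr1 was at most 9.72 CPM in the sorted libraries, beside 10.1 to 85.2 CPM in iMLL-ENL total. Ccl25 lay between 8.57 and 19.3 CPM in B220 HIGH and between 13.2 and 17.6 CPM in B220 LOW, beside 2.69 to 5.79 CPM in iMLL-ENL total. The sort, the table and the fraction cannot be told apart in these differences.

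Beyond the 36 genes, 25 other family members were looked up, and 24 of them were in the tables. Of these 24, 9 had at most 3 counts in every library and 7 were tested against wt LSK. Of the 7, 1 fell and 0 rose, beside 15.1% of all genes called lower and 15.5% higher. The gene that fell was Ackr1, the atypical receptor of red cells and endothelium, with 0 counts in iMLL-ENL total and 67 in wt LSK. That is at least 24.6-fold lower (adjusted p = 0.00722). In B220 HIGH against B220 LOW, 5 were tested and 0 called in either fit, beside 0% of all genes without pairing and 0.629% with it.

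Receptor signalling genes were looked at next. Of 41 listed (G-protein subunits, arrestins, kinases and regulators of the cytoskeleton), 40 were tested against wt LSK, 18 rose, 4 fell and 18 were not called, beside 15.5% of all genes called higher and 15.1% lower. The list's median log2 fold change was 0.73 beside 0.05 over all genes. Rac2, a GTPase that drives neutrophil movement, had a log2 fold change of 1.71 (SE 0.22, adjusted p = 0.000753). Prkcd, a protein kinase C, and Gnai3, an inhibitory G-protein subunit, rose by 1.51 (adjusted p = 0.001) and 1.14 (adjusted p = 0.00163) on the log2 scale. Rgs1, a brake on chemokine receptor signalling named after its values were seen, fell by 5.42 on the log2 scale (SE 0.91, adjusted p = 0.00352), with 4.4, 6.17 and 34.3 CPM in iMLL-ENL total, against 1064, 664 and 431 CPM in wt LSK. Without wt LSK library 1 or 3, 12 or 14 of the list were called in place of 22. In B220 HIGH against B220 LOW, 0 of the 40 were called in either fit, beside 0% of all genes without pairing and 0.629% with it. The list's median log2 fold change there was 0.44 without pairing, beside -0.03 over all genes. In the paired fit without pair 1 or 2, which called more genes in all, 2 of the list were called.

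Genes of NF-kB and inflammatory cytokines, several of them known to be induced together with chemokines, were looked at as well. Of 19 listed, 18 were tested against wt LSK, 3 rose (Il1rn, Tnip1 and Il1b) and 2 fell (Nfkbie and Icam1), beside 30.6% of all genes called, 15.5% higher and 15.1% lower. The list's median log2 fold change was 0.29. Il1rn, the secreted antagonist of the interleukin-1 receptor, had 14.2, 61.8 and 37.1 CPM in iMLL-ENL total, against 0.376, 0.823 and 0.306 CPM in wt LSK (log2 fold change 6.39, SE 0.69, adjusted p = 0.000355). The log2 fold changes were 1.16 for Tnip1 (SE 0.22, adjusted p = 0.00474), 5.18 for Il1b (SE 1.38, adjusted p = 0.0246) and -1.12 for Nfkbie, an NF-kB inhibitor (SE 0.30, adjusted p = 0.0217). Without wt LSK library 1 or 2, 2 of the list were called in place of 5. In B220 HIGH against B220 LOW, 17 were tested, with a median log2 fold change of 0.85 without pairing, beside -0.03 over all genes. Of all genes, 0% were called without pairing and 0.629% with it. Of the 17, 0 were called without pairing and 1 with it, again Il1rn. It had 79.7, 429.8 and 943 CPM in B220 HIGH, against 7.14, 18.2 and 41.3 CPM in B220 LOW, and its paired log2 fold change was 4.25 (SE 0.26, adjusted p = 0.000392). In the paired fit without pair 1, which called more genes in all, 6 of the list were called.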

How the data were processed

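Per the labels' protocols, PicoPure RNA was made into unstranded libraries with a NuGen Ovation kit. The deposited tables hold raw counts per NCBI gene ID, and the authors' gene width in bases (unit: other), used here for levels per kilobase. The deposited CPM tables, signal scaled by the authors, were left out. Per the submitters' processing notes, edgeR, GRCm38 and mm10 were used, and the aligner is not given in the sources used here. RefSeq (GRCm38.p6) gave symbols for 23968 of 24028 IDs, leaving 60. Overlap with another annotated gene makes 11 of the 36 uncertain: Ccl3, Ccl4, Ccl5, Ccl6, Ccl25, Cxcl10, Cxcl16, Ccr6, Ccr9, Cxcr5 and Cx3cr1.

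Each table was fitted apart with edgeR 4.0.16 (R 4.3.3): quasi-likelihood F test, robust, TMM factors, filterByExpr with a minimum count of 10, two-sided, Benjamini-Hochberg over all genes tested, calls at 0.05. The SE is the log2 fold change over the root of F. DESeq2 1.42.0, other scalings, no filter and leaving out libraries were alternatives. Only the edgeR fit without pairing was run on simulated counts, which held no pair effect. The paired fit and DESeq2 were not tested in this way. For iMLL-ENL total against wt LSK, the fit without pairing recovered 5.26%, 63% and 90.3% of 2-, 4- and 8-fold changes. For B220 HIGH against B220 LOW, it recovered 5.71%, 56.5% and 70.7% of them. False calls were 7 of 101 and 7 of 87. The members, gene lists, marker lists and tests were chosen with earlier results of these data known. Listed genes were named in full where called, where called under the block, or where a group averaged at least 1 CPM without overlap; pathway lists gave up to 4 called genes of smallest p. Results for some genes the rule takes are left out of the text.

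The labels do not say what a replicate number marks. Deviations from group means of B220 HIGH and B220 LOW libraries with the same number correlated across genes at 0.394, 0.199 and 0.306, each over 0.1, and on this check alone these libraries were treated as pairs. Depth ran from 10921521 to 22706882 counts per library. A floor is 3 counts over a group, which is 0.0482 CPM in iMLL-ENL total, 0.0531 in wt LSK, 0.0591 in B220 HIGH and 0.0662 in B220 LOW. Intervals are 95% exact binomial, and intervals and floors cover counting error only.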

Additional observations from a re-analysis of the deposited data

How the results depend on the processing

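Of the 11 chemokine genes called in iMLL-ENL total against wt LSK, 9 kept their call in all 11 alternatives. Ppbp lost it without any 1 wt LSK library, and Ccr9 without a filter (adjusted p = 0.0562) and in some leave-one-out fits. Members called ranged over 9 to 14, with 12 under the replicate block, where the numbers did not pair the libraries (correlations 0.0148, 0.159 and -0.0357). Genes called ranged over 2636 to 4528 with a library left out (2658 without wt LSK library 1), signalling genes over 12 to 25 (14 without wt LSK library 3) and NF-kB genes over 2 to 6, and 2 unlisted family genes were called without a filter. With library totals as the only scaling, the median over all genes was -0.10 in place of 0.05, and 7 members were still higher and 4 lower. Log2 fold changes that reversed, none of called genes, ranged with a library left out over -0.11 to 0.85 for Ccl3, -0.88 to 1.29 for Ccl5, -0.65 to 1.25 for Cxcr3, -1.29 to 0.21 for Ccrl2 and -0.31 to 0.57 for Cxcl16, which was also -0.057 with the replicate block and -0.067 with library totals.

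For B220 HIGH against B220 LOW, the paired fit called 79 genes, no filter 22, DESeq2 232 and paired DESeq2 712. Leaving out 1 library gave 0 to 96 (96 without B220 HIGH library 1, 3 without B220 LOW library 1). Leaving out a pair in the paired fit, an alternative chosen after the data were seen like paired DESeq2, gave 10 to 292 (292, 197 and 10 without pairs 1, 2 and 3). Members called were 7 in the paired fit, 8 in DESeq2, 13 in paired DESeq2, 5 without B220 HIGH library 1 and 2 to 8 without a pair. NF-kB genes called were 1 in the paired fit, 1 in DESeq2, 5 in paired DESeq2, 2 without B220 HIGH library 1 and 1 to 6 without a pair. Signalling genes were 1 in DESeq2, 9 in paired DESeq2 and 0 to 2 without a pair, and 1 unlisted family gene was called by paired DESeq2. Reversals were scored against the fit without pairing, which called no gene. None of the chemokine genes that reversed was called in the paired fit. Their ranges with a library left out were: Cxcl10 -1.83 to 1.31, Ccr9 -4.91 to 2.42, Ccr7 -0.43 to 4.67, Ccl25 -0.49 to 0.039, Cxcl1 -0.13 to 7.26 and Cxcr4 -0.18 to 0.43. Cxcl10 was also -0.81 paired, -0.83 in paired DESeq2 and -2.07 without pair 2, Ccr9 -1.40 paired, -1.65 in paired DESeq2 and -4.03 and -0.91 without pairs 2 and 3, and Ccr7 -2.25 without pair 2. The cause of these changes was not tested.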
